A study of Mus musculus with 24 samples.

Results

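The transcripts of 10 hepatic transporters were followed in the livers of 24 male BALB/c mice: the organic anion uptake carriers Slco1a1, Slco1a4, Slco1b2 and Slco2b1, and the ATP-driven exporters Abcc2, Abcc3, Abcc4, Abcb4, Abcb1a and Abcg2. They were chosen by symbol, as the probe sets of the array whose only gene symbol was one of these names. This gave 10 genes of the 18194 on the array, with 18 probe sets of 34958, and all 10 genes lay above the filter on dim genes, so that all were among the 13114 genes tested. The 4 groups held 6 mice each, with 1 array per mouse. STZ mice had received 1 intraperitoneal injection of 185 mg/kg streptozotocin (STZ), a glucose analogue toxic to the insulin-producing beta cells, and were then fed the purified diet AIN93G for 14 days. The 0.1% and 0.5% quercetin groups had the same injection and the same diet with that share of quercetin, a plant flavonol. Control mice ate AIN93G and were left untreated, so they had no injection of the citrate buffer either. All mice arrived at 6 weeks of age, and the 18 injected mice were those whose non-fasting blood glucose, 1 week after injection, lay between 230 and 400 mg/dL. Mice were kept 3 to a cage, and the cage of each mouse is not given in the sources used here, so cage and group cannot be told apart.

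Solute carriers of the Slco family (the Oatp proteins) take bile acids, steroid conjugates, bilirubin and drugs from the blood into the hepatocyte. Transporters of the Abc families use ATP to push lipids, conjugates and drugs out again, either into bile at the canalicular membrane (Abcc2, Abcb4, Abcb1a, Abcg2) or back to the blood at the basolateral membrane (Abcc3, Abcc4). In rodent liver their transcripts are known to be set by the nuclear receptors CAR, PXR, FXR and PPAR alpha, by NRF2 and, for Slco1a1, by the sex-specific pattern of growth hormone, which makes it a male-predominant transcript in mice.

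Promoter windows, from 250 bases before to 50 bases after a RefSeq gene start on the mouse build GRCm38.p6, were taken for 9 of the 10 genes (all but Abcc3), in 14 windows. They are shown for the 4 genes with the largest differences between 0.1% quercetin and control, among them Slco1a1 and Slco1a4, which lie on the same strand of chromosome 6 and moved in opposite directions. Capitals mark matches, on either strand, to AGGTCA (nuclear receptor half-site), TGACNNNGC (antioxidant response element core), GCGTG (xenobiotic response element core) or TTCNNNGAA (STAT site), and no matches overlapped.
Slco1a1, chr6:141946913-141947212, minus strand: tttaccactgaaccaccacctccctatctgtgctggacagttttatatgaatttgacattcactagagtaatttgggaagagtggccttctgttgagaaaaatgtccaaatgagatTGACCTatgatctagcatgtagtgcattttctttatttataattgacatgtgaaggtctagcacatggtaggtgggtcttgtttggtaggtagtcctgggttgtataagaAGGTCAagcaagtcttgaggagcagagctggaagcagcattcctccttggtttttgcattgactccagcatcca
Slco1a4, chr6:141856171-141856470, minus strand: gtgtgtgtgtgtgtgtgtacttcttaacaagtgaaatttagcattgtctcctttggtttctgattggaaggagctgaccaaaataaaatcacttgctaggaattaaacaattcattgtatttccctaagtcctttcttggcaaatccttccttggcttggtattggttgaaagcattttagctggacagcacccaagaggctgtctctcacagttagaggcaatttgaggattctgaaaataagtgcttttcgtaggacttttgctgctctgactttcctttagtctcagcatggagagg
Abcb4, chr5:8893471-8893770, plus strand: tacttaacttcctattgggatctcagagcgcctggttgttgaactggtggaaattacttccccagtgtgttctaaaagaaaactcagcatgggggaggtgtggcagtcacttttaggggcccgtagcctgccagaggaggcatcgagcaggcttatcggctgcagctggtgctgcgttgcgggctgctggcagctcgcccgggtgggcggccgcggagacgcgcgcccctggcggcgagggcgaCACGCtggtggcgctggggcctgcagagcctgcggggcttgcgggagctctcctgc
Abcb1a, chr5:8566841-8567140, plus strand: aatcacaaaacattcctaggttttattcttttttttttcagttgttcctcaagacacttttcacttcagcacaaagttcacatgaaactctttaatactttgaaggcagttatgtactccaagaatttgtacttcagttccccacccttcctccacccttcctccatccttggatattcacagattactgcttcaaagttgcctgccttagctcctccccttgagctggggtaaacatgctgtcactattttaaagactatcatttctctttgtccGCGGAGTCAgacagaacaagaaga
The Slco1a1 window held 2 half-sites, at -134 and -24 from the gene start, on opposite strands. The Slco1a4 window held 0 of the 4 motifs. The Abcb4 window held 1 GCGTG core at -6, and the Abcb1a window 1 antioxidant response element core at 27. A half-site was present in 5 of the 14 windows of the transporters and in 16.3% of all 32817 windows of this length, and an antioxidant core in 4 of the 14 and 12.4% of all. The GCGTG core was in 3 of the 14 windows and 32.4% of all, and the STAT site in 4 of the 14 and 8.29% of all. These are counts of windows, not of genes, since Abcg2, Slco2b1 and Abcc4 had more than 1 window. Half-sites recurred in windows of Abcg2, STAT sites in those of Slco2b1 and antioxidant cores in those of Abcc4. Half-sites were also matched in windows of Slco1b2, Abcc2 and Abcg2, and antioxidant cores in windows of Abcc2 and Abcc4. A match of letters is not a binding site, and a window without one says nothing about the factor. Slco1a4 lies between Slco1b2 and Slco1a1 in the gene table, where Gm5724 is the only other coding gene in between, and Abcb1b lies between Abcb1a and Abcb4.

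Levels are given as log2(normalized intensity + 16), where the intensity is the brightness of a probe set after quantile normalization over the 24 arrays, and 1 unit is a doubling except near the floor, where the added 16 understates a change. Differences are on that scale, with the standard error (SE) and the p-value of limma adjusted over the 13114 genes by Benjamini-Hochberg, and a gene is said to rise or fall where that p was under 0.05. Brightness is not compared between genes. Array means ran between 61 and 102 before normalization, and correlations between arrays between 0.969 and 0.987. Signals of the 5 hepatocyte markers measured summed to 30400 to 33200 in STZ livers, 32000 to 32900 at 0.1%, 31300 to 32500 at 0.5% and 30900 to 32400 in control livers, and of the cholangiocyte markers Krt7 and Cftr lay under the filter.

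Replicates 5 and 6 of the 0.5% quercetin group stood apart from the other 4 mice of that group for 7 of the 10 transporters. How many of all genes set these 2 livers apart in this way was not counted. The 7 of 10 can therefore not be read as particular to the transporters. Slco1a1 measured 10.34 and 10.51 in these 2 livers, against 9.19 to 9.77 in the other 4. Slco1a4 measured 5.74 and 5.96 in them, against 6.30 to 7.44 in the other 4, and Abcb4 9.17 and 9.05, against 9.66 to 9.88. Abcc2 and Abcb1a were likewise lower, and Abcg2 higher, in both than in any of the other 4, and for these 6 genes the 2 livers lay toward or beyond the control values. Abcc3 measured 7.07 and 7.25 in them, against 7.31 to 7.97 in the other 4, which themselves lay within the control range of 7.22 to 7.96 but for the highest. For Abcb1a both values lay within the range of control livers, and for each of the other 6 genes at least 1 value lay outside it. Differences of the 0.5% group are therefore also given without these 2 mice, where the text says so.

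**Figure D1:**
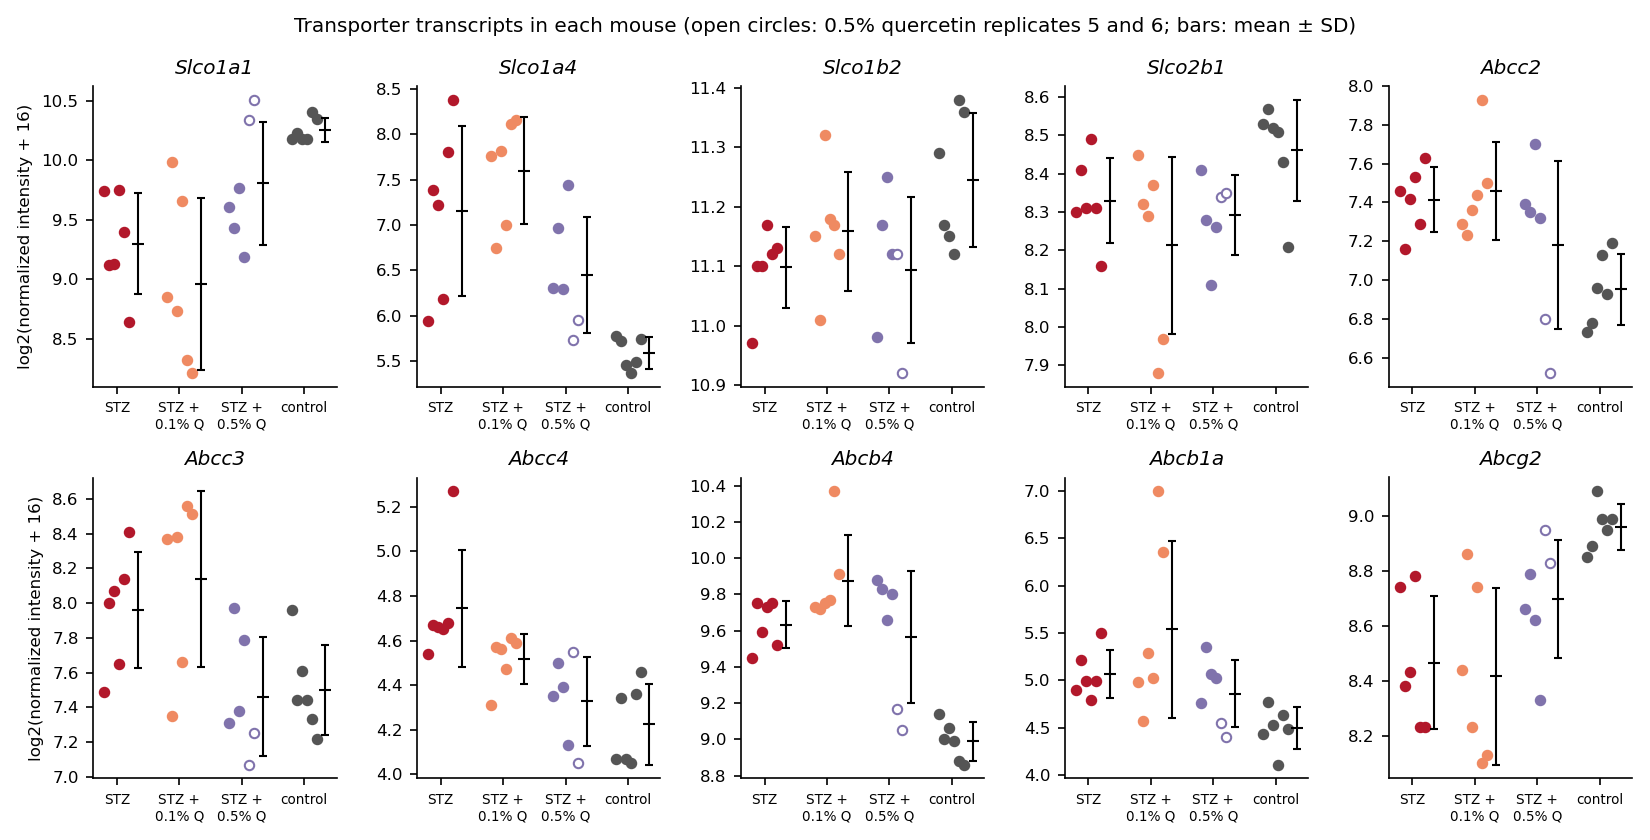
Level of each transporter in every mouse, as log2(normalized intensity + 16), for STZ, STZ with 0.1% quercetin, STZ with 0.5% quercetin and control mice (1 point per liver, 6 per group, bars mean ± SD). Slco1a1 and Abcg2 lie lower, and Slco1a4, Abcb4, Abcc4 and Abcb1a higher, in all 6 STZ livers than in any control liver, and the open circles of 0.5% replicates 5 and 6 lie apart from the other 4 points for 7 genes.

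STZ livers were compared with control livers to see which carriers changed with streptozotocin treatment. Among the uptake carriers, Slco1a4 rose 2.94-fold and Slco1a1 fell to 0.515 of control. Among the exporters, Abcb4 and Abcc4 rose and Abcg2 fell. In all, 3 of the 10 rose, 2 fell and 5 did not pass, where 3.72% of the genes tested passed (2.03% higher and 1.69% lower). Of the genes that passed, 54.5% were higher, and this share was 74.5% on the values as deposited and 37.9% with arrays scaled to 1 median. Of the 10 transporters, 4 had every STZ liver above every control liver and 2 had every STZ liver below, where 4.19% of all genes had groups that did not overlap (1.96% higher and 2.23% lower). At an unadjusted p under 0.05 stood 8 of the 10, and 16.7% of all genes. The median size of the difference was 0.51 over the 10 transporters and 0.10 over all genes tested. The 10 were chosen with earlier results of these data known. Their counts and sizes beside those of all genes, here and below, are therefore descriptions and not a test. In whole liver, fewer cells of a type and less RNA per cell cannot be told apart.

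Slco1a1 encodes Oatp1a1, an uptake carrier of bile acids and steroid sulphates. It had a lowest, median and highest value of 8.64, 9.27 and 9.75 in STZ livers, against 10.18, 10.21 and 10.41 in control livers. The control livers lay close together and above all STZ livers, whose spread was wider. Means were 9.30 ± 0.43 in STZ and 10.26 ± 0.10 in control livers (SD, n = 6 each), a difference of -0.96 (SE 0.25, limma adjusted p = 0.0299). The other Slco1a1 probe set, 1449844_at, was below control in all 6 STZ livers too, with a difference of -0.82 that did not pass when all 23082 probe sets were tested (limma adjusted p = 0.078). The call for Slco1a1 was lost when control replicate 3, 5 or 6, or STZ replicate 2, 3 or 6, was left out, with a limma adjusted p between 0.0247 and 0.0926 and a difference between -1.05 and -0.83 over the 12 omissions.

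Slco1a4 encodes Oatp1a4, an uptake carrier of bile acids and digoxin whose gene is a known CAR and PXR target in mice. Its lowest, median and highest values were 5.94, 7.30 and 8.38 in STZ livers, against 5.37, 5.61 and 5.78 in control livers. All STZ livers lay above all control livers, though 2 of them, replicates 1 (5.94) and 4 (6.19), only just. The difference of 1.56 (SE 0.33, limma adjusted p = 0.00694) kept its call in each of the 12 omissions of 1 mouse. In unlogged normalized intensity the medians were 142 in STZ livers and 33.0 in control livers.

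Slco1b2, which encodes Oatp1b2, a carrier of bilirubin and statins found mainly in hepatocytes, had 5 probe sets that disagreed. The brightest, 1449394_at, ran between 10.97 and 11.17 with a median of 11.11 in STZ livers, against 11.12 to 11.38 with a median of 11.23 in control livers. The difference of -0.15 (95% interval -0.30 to 0.00, limma adjusted p = 0.304) did not pass. The next brightest, 1452494_s_at, differed by 0.09 (limma adjusted p = 0.813 over all probe sets). Probe set 1427826_a_at, which by its suffix can match several transcripts of 1 gene, was higher in STZ livers, at 8.63 ± 0.43 against 7.64 ± 0.61 in control livers (SD, n = 6 each), with a difference of 1.00 (SE 0.25, limma adjusted p = 0.0294 over 23082 probe sets, of which 2.66% passed). It was above all control livers in 5 of 6 STZ livers. The remaining pair, 1427825_at and 1452569_at, was dim and differed by 0.05 and -0.17. The mean over the gene's probe sets differed by 0.16, so the sign for Slco1b2 depended on the probe sets used.

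Slco2b1, a carrier of steroid sulphates also found outside the liver, had a lowest, median and highest value of 8.16, 8.31 and 8.49 in STZ livers, against 8.21, 8.51 and 8.57 in control livers. The groups overlapped, and the difference of -0.13 (95% interval -0.32 to 0.06, limma adjusted p = 0.517) did not pass. Its next probe set, 1454777_at, differed by -0.18, and 1458171_at lay under the filter.

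Abcb4 encodes Mdr2, the canalicular floppase that delivers phosphatidylcholine to bile. Its values in STZ livers were 9.45, 9.66 and 9.75 (lowest, median, highest), against 8.86, 8.99 and 9.14 in control livers. Both groups were narrow and apart by more than the whole range of either. The difference was 0.64 (SE 0.13, limma adjusted p = 0.00511), or 1.56-fold, and it stayed between 0.62 and 0.68 over the 12 omissions of 1 mouse.

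Abcc4 encodes Mrp4, a basolateral exporter of bile acids and cyclic nucleotides. Its single probe set was dim, at the 51.1 percentile of probe set means. It measured 4.54, 4.66 and 5.27 in STZ livers, against 4.05, 4.20 and 4.46 in control livers. All STZ livers lay above all control livers, and STZ replicate 6 (5.27) lay well above the other 5, whose highest was 4.68. The difference was 0.52 (SE 0.11, limma adjusted p = 0.00826). In unlogged normalized intensity the medians were 9.36 in STZ livers and 2.50 in control livers, and with 1 in place of 16 added before the logarithm the difference was 1.86.

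Abcg2 encodes Bcrp, a canalicular exporter of sulphated conjugates and many drugs. It measured 8.23, 8.40 and 8.78 in STZ livers, against 8.85, 8.97 and 9.09 in control livers. The groups did not overlap, by a gap smaller than the spread of the STZ livers. The difference was -0.50 (SE 0.13, limma adjusted p = 0.0259), and its call was lost without control replicate 3 or 4, or STZ replicate 2, 3, 5 or 6, with a limma adjusted p between 0.016 and 0.0751 over the 12 omissions.

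The other 3 exporters had positive differences that did not pass. Abcc2 (Mrp2, the canalicular exporter of bilirubin conjugates) measured 7.16, 7.44 and 7.63 in STZ livers, against 6.73, 6.95 and 7.19 in control livers. That was above all control livers in 5 of 6 STZ livers, with a difference of 0.46 (SE 0.15, limma adjusted p = 0.0843). In a fit without replicates 5 and 6 of the 0.5% group, Abcc2 passed (limma adjusted p = 0.014). The STZ and control livers and the difference of 0.46 were the same there. The SE was smaller (0.11) after removal of 2 mice singled out by their values, those of Abcc2 among them. That pass is therefore no separate support. Abcc3 (Mrp3, a basolateral exporter of glucuronides) measured 7.49, 8.03 and 8.41 in STZ livers, against 7.22, 7.44 and 7.96 in control livers, with overlap and a difference of 0.46 (95% interval 0.06 to 0.86, limma adjusted p = 0.213). Abcb1a (Mdr1a, a form of P-glycoprotein) was dim and measured 4.79, 4.99 and 5.50 in STZ livers, against 4.11, 4.51 and 4.77 in control livers. Its groups did not overlap, yet the difference of 0.57 (SE 0.27, limma adjusted p = 0.278) did not pass in the fit over all 4 groups. With the STZ and control livers alone in the fit, Abcb1a (limma adjusted p = 0.0113) and Abcc2 (limma adjusted p = 0.0116) both passed. The Abcb1a probe set 1419758_at differed by 0.17.

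**Figure D2:**
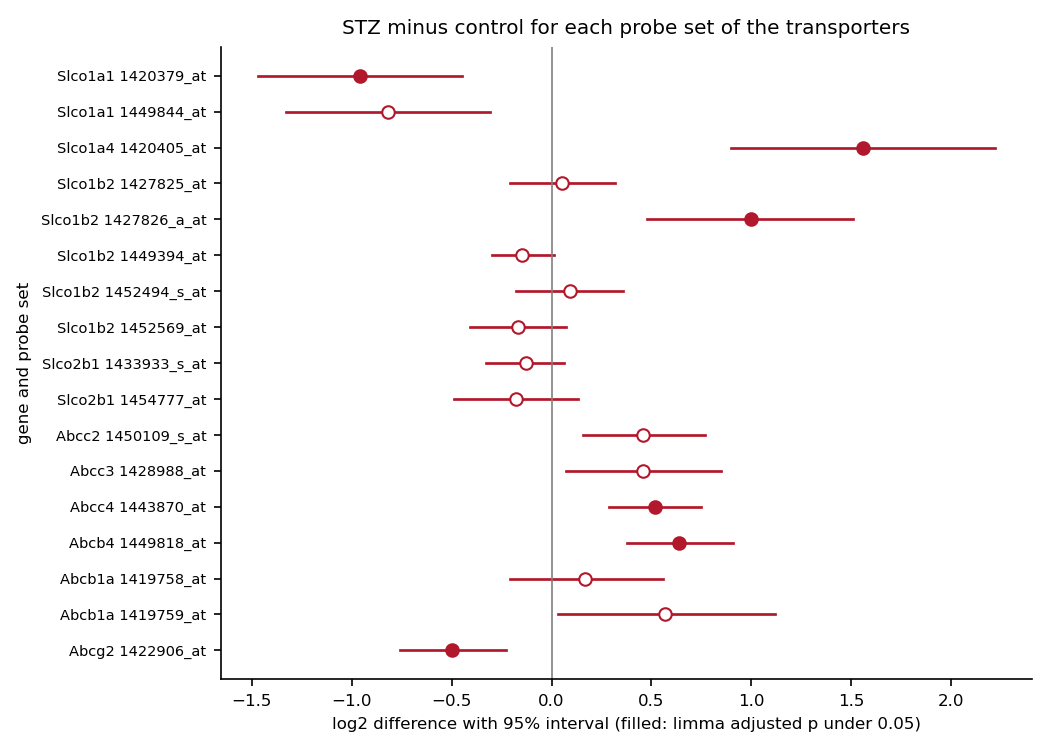
Difference of STZ minus control (log2 scale, points, with 95% intervals) for each of the 17 probe sets of the 10 transporters above the filter, filled where the limma adjusted p over all probe sets was under 0.05. The Slco1b2 probe set 1427826_a_at lies at 1.00 while the other 4 of that gene lie between -0.17 and 0.09, and both Slco1a1 probe sets lie below 0.

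A measure of RNA quality moved with these results. For the Gapdh control probe sets, the log2 signal at the 3' end minus that at the 5' end averaged -0.34 ± 0.10 in STZ livers, -0.32 ± 0.15 at 0.1%, -0.21 ± 0.17 at 0.5% and -0.04 ± 0.17 in control livers (SD, n = 6 each). With it as a term in the fit, 0 of the 10 transporters and 6 of all genes passed between STZ and control. The differences then were 0.77 for Slco1a4, -0.35 for Slco1a1, 0.50 for Abcb4, 0.40 for Abcc4 and -0.21 for Abcg2. The same measure for Actb averaged 1.12 ± 0.23 in STZ and 1.24 ± 0.19 in control livers. The Gapdh measure ran between -0.46 and -0.17 in STZ livers and between -0.18 and 0.28 in control livers, so it largely followed the group. A fit with this term can therefore not tell RNA quality and group apart, and its lost calls do not decide between them. The part of RNA quality in the differences was not tested.

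Signals of other cell types also differed. The summed signal of 7 macrophage markers, among them Marco under the filter, ran between 865 and 1090 in STZ livers and 615 and 790 in control livers. It ran between 897 and 1140 at 0.1% and 609 and 1010 at 0.5%. Of the 6 tested, 2 rose with STZ (Cd5l by 0.58 and C1qa by 0.48), where 2.03% of all genes rose. The sum of 4 lymphocyte markers ran between 67.3 and 112 in STZ livers, against 163 to 309 in control livers. Of the 2 above the filter, Ighm was lower by a log2 difference of -1.63, and Ptprc differed by 0.27 and did not pass. Of the endothelial markers 1 of 6 rose (Lyve1, 1.02). Differences that did not pass were -0.22 for Cdh5, -0.20 for Stab2, -0.19 for Clec4g, 0.09 for Pecam1 and 0.01 for Kdr. Of the stellate markers 1 of 6 rose (Dcn, 0.41). Those that did not pass were -0.33 for Reln, -0.02 for Col3a1, 0.19 for Lrat, 0.11 for Des and 0.07 for Col1a1. Of the cholangiocyte markers tested 0 of 3 passed. Sums of 5 cholangiocyte markers, with Krt7 and Cftr, ran between 28.4 and 34.2 in STZ livers and 21.9 and 44.2 in control livers. Of the hepatocyte markers 0 of 5 passed. The part of these cells in the transporter values was not tested.

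The livers of the 0.1% quercetin group were set against the same control livers. More transporters passed here: Slco1a4, Abcb4, Abcb1a, Abcc2 and Abcc3 rose, Slco1a1 and Abcg2 fell, and Slco1b2, Slco2b1 and Abcc4 did not pass. That is 7 of 10, where 5.57% of all genes passed (2.94% higher and 2.64% lower). Groups did not overlap for 3 transporters that were higher and 1 that was lower, where 3.94% of all genes had such groups (2.11% higher and 1.83% lower). The controls are shared with the comparison above, so the results do not stand as separate evidence.

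Slco1a4 had values of 6.75, 7.79 and 8.16 at 0.1% quercetin (lowest, median, highest), against 5.37, 5.61 and 5.78 in control livers. All 6 livers lay above control by a clear gap. The difference was 2.00 (SE 0.33, limma adjusted p = 0.000608), or 4.01-fold. Slco1a1 had values of 8.21, 8.79 and 9.99, against 10.18, 10.21 and 10.41 in control livers, the widest spread of Slco1a1 in the 4 groups. The difference was -1.30 (SE 0.25, limma adjusted p = 0.00246), and the other Slco1a1 probe set fell by 1.15 on the log2 scale (limma adjusted p = 0.007).

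Abcb4 had values of 9.72, 9.76 and 10.37 at 0.1% quercetin, against 8.86, 8.99 and 9.14 in control livers, with a difference of 0.89 (SE 0.13, limma adjusted p = 0.000211). All 6 livers were above control, and replicate 5 (10.37) was above the next by more than the range of the other 5. Abcg2 had values of 8.10, 8.33 and 8.86, against 8.85, 8.97 and 9.09 in control livers, with a difference of -0.55 (SE 0.13, limma adjusted p = 0.00984), and 5 of 6 livers lay below all controls. Abcb1a had values of 4.57, 5.16 and 7.0, against 4.11, 4.51 and 4.77 in control livers, where replicates 5 (7.0) and 6 (6.36) held the highest values and the other 4 reached no higher than 5.29. The Abcb1a difference of 1.04 (SE 0.27, limma adjusted p = 0.0197) was no longer called without control replicate 4 (limma adjusted p = 0.0506), without 0.1% replicate 5 (0.75, limma adjusted p = 0.0515) or without replicate 6 (0.88, limma adjusted p = 0.0651), nor with the 0.1% and control livers alone in the fit (limma adjusted p = 0.0641).

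Abcc2 measured 7.23, 7.40 and 7.93 at 0.1% quercetin, against 6.73, 6.95 and 7.19 in control livers, with no overlap and a difference of 0.50 (SE 0.15, limma adjusted p = 0.0452). Abcc3 measured 7.35, 8.37 and 8.56, against 7.22, 7.44 and 7.96 in control livers, with 4 of 6 livers above all controls and a difference of 0.64 (SE 0.19, limma adjusted p = 0.0487). Both calls lay close to the threshold, and each was lost in 9 of the 12 omissions of 1 mouse, with limma adjusted p up to 0.134 for Abcc2 (without 0.1% replicate 5) and 0.132 for Abcc3 (without the same mouse). Of 13 other settings, the Abcc2 call was lost in 8 and the Abcc3 call in 11, among them, for Abcc3, the fit of the 0.1% and control livers alone (limma adjusted p = 0.0641). Abcc4 measured 4.31, 4.57 and 4.61, against 4.05, 4.20 and 4.46 in control livers, a difference of 0.30 (SE 0.11, limma adjusted p = 0.128). Slco2b1 differed by -0.25 (limma adjusted p = 0.124), with its lowest values, 7.88 and 7.97, in replicates 5 and 6. Slco1b2 differed by -0.09 on its brightest probe set (limma adjusted p = 0.561) and by 0.92 on 1427826_a_at (limma adjusted p = 0.0343 over all probe sets, of which 4.14% passed). With this Gapdh measure as a term, 0 of the 10 passed, with 1.27 for Slco1a4, -0.73 for Slco1a1 and 0.76 for Abcb4 (limma adjusted p = 0.0508).

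In the 0.5% quercetin group, 0 of the 10 transporters passed against control by limma, where 0.13% of all genes passed, and 4 had an unadjusted p under 0.05, where 12.3% of all genes had one. The smallest adjusted p belonged to Abcb4, with values of 9.05, 9.73 and 9.88 at 0.5% (lowest, median, highest), against 8.86, 8.99 and 9.14 in control livers, and a difference of 0.57 (SE 0.13, limma adjusted p = 0.0536). Slco1a4 had values of 5.74, 6.31 and 7.44, against 5.37, 5.61 and 5.78 in control livers, a difference of 0.86 (95% interval 0.19 to 1.52, limma adjusted p = 0.267). Slco1a1 had values of 9.19, 9.69 and 10.51, against 10.18, 10.21 and 10.41 in control livers, a difference of -0.45 (95% interval -0.97 to 0.07, limma adjusted p = 0.489). The Slco1a1 and Slco1a4 ranges at 0.5% each reached into that of the control livers, by way of replicate 5 in both genes, while replicate 6 lay above all controls for both.

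Without those 2 mice, 2 of the 10 passed, where 3.3% of all genes did: Abcb4, 9.79 ± 0.09 at 0.5% (SD, n = 4) against 8.99 ± 0.11 in control livers (SD, n = 6), with a difference of 0.80 (SE 0.11, limma adjusted p = 4.01e-05), and Abcc2, with a difference of 0.49 (SE 0.12, limma adjusted p = 0.0296). Abcb4 also passed with only replicate 5 (limma adjusted p = 0.0102) or only replicate 6 (limma adjusted p = 0.00543) left out. Slco1a4 then differed from control by 1.16 (limma adjusted p = 0.0699), Slco1a1 by -0.76 (limma adjusted p = 0.11) and Abcg2 by -0.36 (limma adjusted p = 0.174), and for these 3 genes all 4 remaining livers lay outside the range of the controls. Abcc3 and Abcc4 stayed near control, with differences of 0.11 and 0.12. These mice were singled out by their values, and the fit with all 24 mice is the main one.

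**Figure D3:**
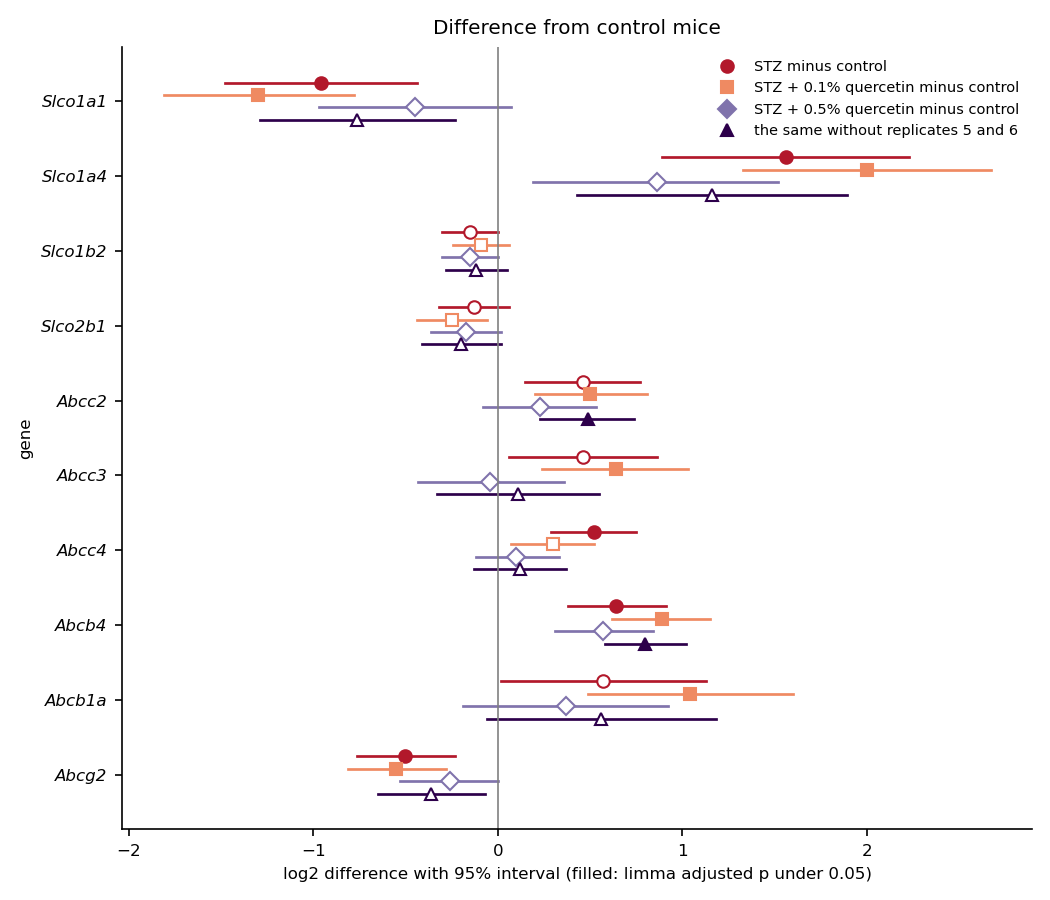
Difference from control mice (log2 scale, points, with 95% intervals) of each transporter for STZ, STZ with 0.1% quercetin and STZ with 0.5% quercetin, the last also without replicates 5 and 6, filled where the limma adjusted p was under 0.05. The largest differences are those of Slco1a4 (2.00 and 1.56) and Slco1a1 (-1.30 and -0.96) at 0.1% quercetin and in STZ mice, and with all mice no 0.5% point is filled.

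Whether quercetin changed the transporters in STZ mice was read from the quercetin groups against STZ mice, and between doses. At 0.1% against STZ, 0 of the 10 passed by limma and 0 had an unadjusted p under 0.05, where 0% of all genes passed and 5.24% had such a p. At 0.5% against STZ, 0 of the 10 passed, where again 0% of all genes did, and 3 had an unadjusted p under 0.05, where 7.51% of all genes had one. Without 0.5% replicates 5 and 6, the limma unadjusted p of these 3 was 0.27 for Slco1a4, 0.113 for Abcc3 and 0.00271 for Abcc4. At 0.5% against 0.1%, 0 of the 10 and 0% of all genes passed, and 6 of the 10 had an unadjusted p under 0.05, where 8.34% of all genes had one. Without the same 2 mice, the limma unadjusted p was 0.429 for Abcb4, 0.12 for Abcb1a and 0.199 for Abcg2. It stayed under 0.05 for Slco1a1 (0.0468), Slco1a4 (0.0249) and Abcc3 (0.0204). The shares of all genes without these mice were not counted. The comparisons with STZ mice and between doses share their groups with each other and with those against control.

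The intervals were wide next to the STZ differences. Slco1a4 averaged 7.60 ± 0.59 at 0.1% and 7.15 ± 0.93 in STZ livers (SD, n = 6 each), a difference of 0.45 (95% interval -0.22 to 1.11). It averaged 6.45 ± 0.64 at 0.5%, a difference from STZ of -0.70 (95% interval -1.37 to -0.03, limma adjusted p = 0.632). Against 0.1% quercetin, 0.5% differed by -1.15 (95% interval -1.82 to -0.48, limma adjusted p = 0.355), and by -0.84 without replicates 5 and 6 (95% interval -1.57 to -0.12, limma adjusted p = 0.929). At 0.5%, 5 of 6 livers lay within the range of the STZ livers for Slco1a4, and 4 of 6 lay below all livers at 0.1%.

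Slco1a1 averaged 8.96 ± 0.72 at 0.1% and 9.30 ± 0.43 in STZ livers (SD, n = 6 each), a difference of -0.34 (95% interval -0.86 to 0.18). At 0.5% it averaged 9.81 ± 0.52, a difference from STZ of 0.51 (95% interval -0.01 to 1.03, limma adjusted p = 0.668) and from 0.1% of 0.85 (95% interval 0.33 to 1.37, limma adjusted p = 0.38). The Slco1a4 and Slco1a1 differences of 0.5% from STZ moved to -0.40 and 0.20 without replicates 5 and 6 (limma adjusted p = 0.998 each), and the Slco1a1 difference of 0.5% from 0.1% to 0.54 (95% interval 0.01 to 1.07, limma adjusted p = 0.976).

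Abcc4 had the smallest p of the 10 between 0.5% and STZ, with 4.05, 4.37 and 4.55 at 0.5% (lowest, median, highest), against 4.54, 4.66 and 5.27 in STZ livers. It was below all STZ livers in 5 of 6 livers at 0.5%, with a difference of -0.42 (95% interval -0.64 to -0.19, limma adjusted p = 0.365), and without replicates 5 and 6 the difference was -0.40 (limma adjusted p = 0.839). Abcc3 differed by -0.50 at 0.5% against STZ (95% interval -0.89 to -0.10, limma adjusted p = 0.576) and by -0.68 at 0.5% against 0.1% (95% interval -1.07 to -0.28, limma adjusted p = 0.355). Without replicates 5 and 6 these were -0.35 (95% interval -0.79 to 0.09) and -0.53 (95% interval -0.97 to -0.09). Its 0.5% livers measured 7.07, 7.34 and 7.97, against 7.49, 8.03 and 8.41 in STZ livers, with 4 of 6 below all STZ livers. Abcb4 differed from STZ by 0.24 at 0.1% (95% interval -0.02 to 0.51) and by -0.07 at 0.5% (95% interval -0.33 to 0.20), and the sign at 0.5% turned without replicates 5 and 6, to 0.16 (95% interval -0.06 to 0.38). Abcb1a, with intervals of -0.08 to 1.02 at 0.1% and -0.76 to 0.35 at 0.5%, and Abcg2, with intervals of -0.31 to 0.21 at 0.1% and -0.03 to 0.49 at 0.5%, did not pass either. Without replicates 5 and 6, Abcb1a at 0.5% differed from STZ by -0.01 (95% interval -0.63 to 0.61) and Abcg2 by 0.14 (95% interval -0.15 to 0.42). Abcc2 differed from STZ by 0.04 at 0.1% and by -0.24 at 0.5%, Slco1b2 by 0.06 and 0.00, and Slco2b1 by -0.12 and -0.04, in that order of doses. Without replicates 5 and 6 the differences at 0.5% were 0.02 for Abcc2, where the sign turned, 0.03 for Slco1b2 and -0.06 for Slco2b1. The absence of a call does not show that STZ mice with and without quercetin were alike.

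**Figure D4:**
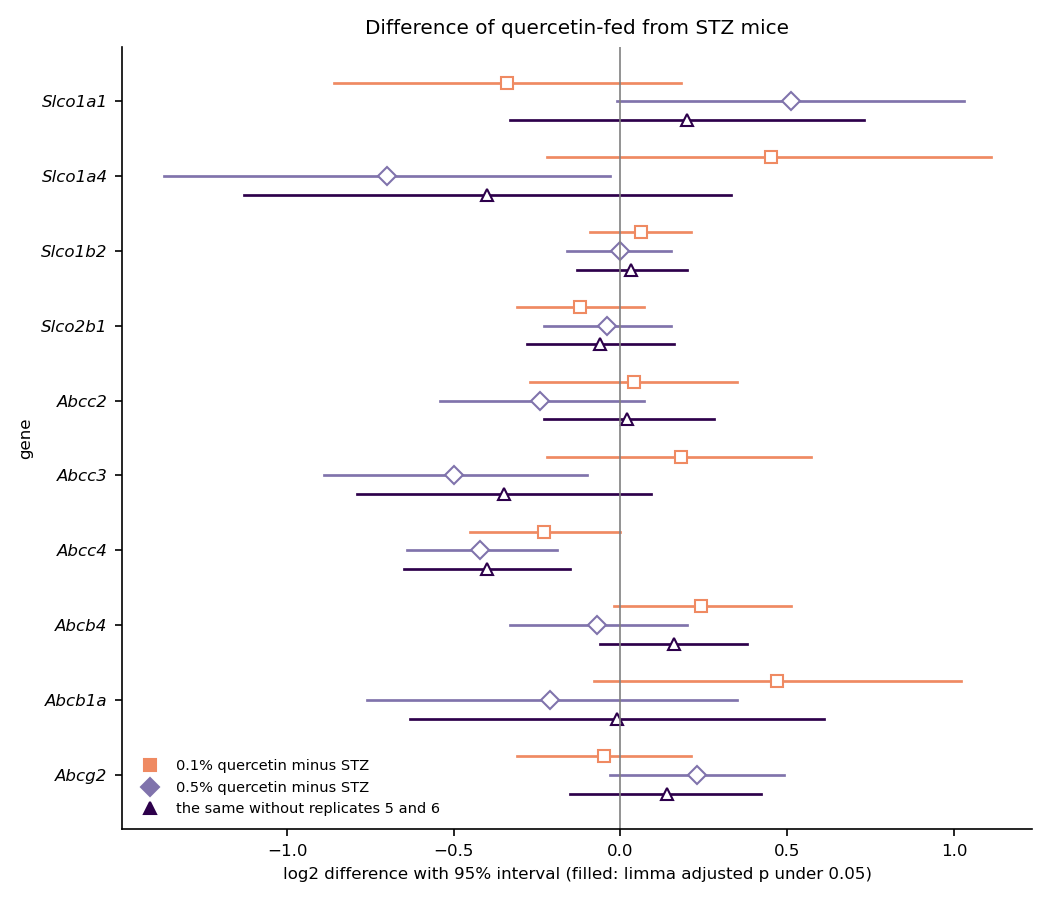
Difference of the 0.1% and 0.5% quercetin groups from STZ mice (log2 scale, points, with 95% intervals) for each transporter, the 0.5% group also without replicates 5 and 6. No point is filled, since no limma adjusted p was under 0.05, and the interval of Abcc4 at 0.5% runs between -0.64 and -0.19.

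Within the 3 STZ-treated groups, the mice with the highest Slco1a4 tended to have the lowest Slco1a1. In the STZ group, replicates 1 and 4 had the lowest Slco1a4 (5.94 and 6.19) with the highest Slco1a1 (9.74 and 9.75), and replicate 6 had the highest Slco1a4 (8.38) with the lowest Slco1a1 (8.64). At 0.1% quercetin, replicates 5 and 6 had the highest Slco1a4 (8.11 and 8.16) with the lowest Slco1a1 (8.32 and 8.21), and replicates 2 and 4 had the lowest Slco1a4 (6.75 and 7.0) with the highest Slco1a1 (9.99 and 9.66). At 0.5%, replicate 4 had the highest Slco1a4 (7.44) and the lowest Slco1a1 (9.19). In these groups Abcg2 went with Slco1a1: its 2 highest values were in STZ replicates 1 (8.74) and 4 (8.78), in 0.1% replicates 2 (8.86) and 4 (8.74) and in 0.5% replicates 5 (8.95) and 6 (8.83). Abcc3 was lowest in the same 6 mice, at 7.49 and 7.65 in STZ replicates 1 and 4, 7.35 and 7.66 in 0.1% replicates 2 and 4, and 7.07 and 7.25 in 0.5% replicates 5 and 6. The control livers, with narrow ranges, did not show these orders: replicate 4 had the lowest Slco1a4 (5.37) and, by a margin under the rounding, the lowest Slco1a1 (10.18), and the highest Abcg2 (9.09) was in replicate 3, where Slco1a1 was 10.18.

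**Figure D5:**
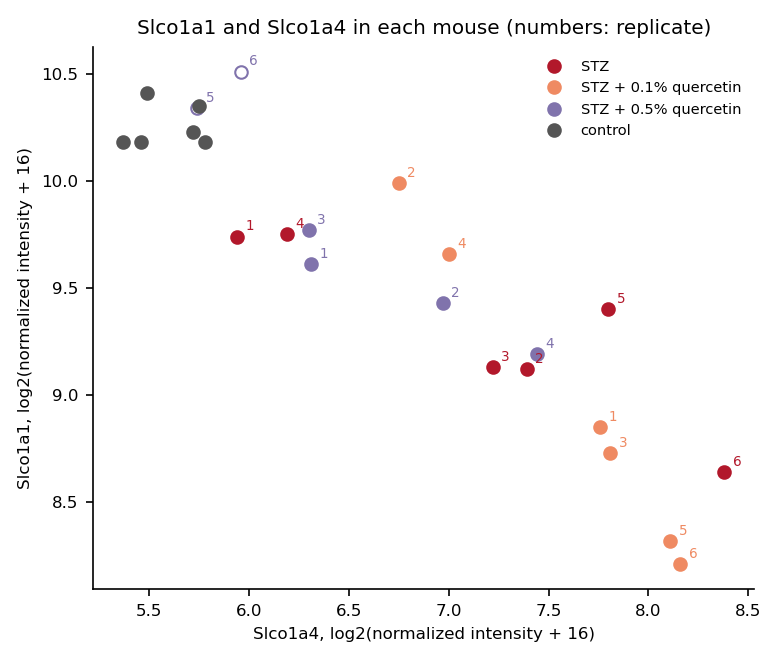
Slco1a1 against Slco1a4 in each of the 24 livers, both as log2(normalized intensity + 16), coloured by group and numbered by replicate in the 3 STZ-treated groups. The control livers and 0.5% replicates 5 and 6 (open circles) sit at high Slco1a1 and low Slco1a4, and 0.1% replicates 5 and 6 at the other end, at 8.32 and 8.21 for Slco1a1.

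The genes most like each of the 8 transporters called in any comparison were taken by Pearson r over all 24 livers, with r after removal of the group means beside it. These are descriptions, since the livers share groups, normalization and array quality. Slco1a1 was most like Hsd3b5 (r = 0.98, within groups 0.95), a male-predominant hepatic steroid dehydrogenase of mice, then Hao1 (0.96, within groups 0.90), a peroxisomal oxidase, and Mup10 (0.95, within groups 0.93), a major urinary protein. Slco1a4 was most like Cyp4a14 (0.95, within groups 0.89), a fatty acid hydroxylase known as a PPAR alpha target, then the sulphotransferase Sult1a1 (0.94, within groups 0.89) and the glutathione transferase Gstt2 (0.93, within groups 0.87). Abcg2 was most like Serpina12 (0.95, within groups 0.90), Slco1a1 itself (0.93, within groups 0.87) and Serpina11 (0.92, within groups 0.83).

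Abcb4 was most like Enc1 (0.93, within groups 0.87), Plk2 (0.92, within groups 0.82), a p53-inducible kinase, and the epoxide hydrolase Ephx1 (0.91, within groups 0.81). Abcb1a went with Ak4 (0.91, within groups 0.89), the carbonyl reductase Cbr1 (0.91, within groups 0.86) and the glutathione transferase Gstm3 (0.90, within groups 0.86). Abcc3 went with the aminotransferase Gpt (0.91, within groups 0.85), Gstt3 (0.89, within groups 0.86) and Akr1c19 (0.89, within groups 0.89). Abcc2 went with Ifi27 (0.89, within groups 0.82), Nbr1 (0.88, within groups 0.80) and Gbp2b (0.87, within groups 0.79). Among these 8, dim Abcc4 had the weakest likeness, to Pls1 (0.80, within groups 0.64), Myadm (0.75, within groups 0.52) and Spink1 (0.75, within groups 0.58).

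Of 10 other hepatic uptake carriers tested between STZ and control, 2 rose, 2 fell and 6 did not pass, where 3.72% of all genes passed. The carnitine carrier Slc22a5 rose by 0.51 (SE 0.15, limma adjusted p = 0.0472) and Slc22a27 by 0.58 (SE 0.13, limma adjusted p = 0.0121). The Slc22a27 probe set has a suffix that marks probes able to match other genes. Slc22a30 fell by 0.51 (SE 0.11, limma adjusted p = 0.00713) and the prostaglandin carrier Slco2a1 by 0.41 (SE 0.11, limma adjusted p = 0.0335) on the log2 scale. At 0.1% against control, Slc22a5, Slc22a27 and Slc22a30 passed again, with differences of 0.69, 0.59 and -0.55. Of 14 other efflux transporters tested, 0 passed by limma between STZ and control, with 4 at an unadjusted p under 0.05, where 16.7% of all genes had one. At 0.1%, where 5.57% of all genes passed, 1 of the 14 rose, the basolateral bile acid exporter subunit Slc51b, by 0.56 (SE 0.16, limma adjusted p = 0.0359).

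Of 14 transporter regulators tested, 1 rose between STZ and control, where 2.03% of all genes rose. This was Nfe2l2, which encodes NRF2, at 8.45 ± 0.12 in STZ and 7.74 ± 0.16 in control livers (SD, n = 6 each), a difference of 0.71 (SE 0.14, limma adjusted p = 0.00563), and it differed by 0.68 at 0.1% (limma adjusted p = 0.00501). Of 10 genes that report on receptor activity, 1 rose and 1 fell between STZ and control, where 3.72% of all genes passed. Cyp4a14 rose by 2.27 (SE 0.62, limma adjusted p = 0.0358) and Cyp1a2, a target of the aryl hydrocarbon receptor, fell by 0.60 (SE 0.15, limma adjusted p = 0.0201). The other 8 did not pass. Their differences were 1.06 for Cyp2b10, 0.50 for Srxn1, 0.41 for Nqo1 and 0.29 for Gclc. They were 0.28 for Cyp3a11, 0.11 for Hmox1, 0.07 for Ces2a and 0.01 for Cyp1a1. At 0.1% against control, where 5.57% of all genes passed, Cyp4a14 differed by 3.18 (limma adjusted p = 0.00244), Cyp1a2 by -0.56 (limma adjusted p = 0.0217) and Srxn1, an NRF2 target, by 0.73 (limma adjusted p = 0.00661). The other 7 reporters did not pass there. At 0.5% against control 0 genes of these 4 lists passed by limma, and an unadjusted p under 0.05 was held by 2 of 10 uptake carriers, 2 of 14 efflux transporters, 1 of 14 regulators and 3 of 10 reporters, where 12.3% of all genes had one.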

How the data were processed

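Per the labels' protocols, total liver RNA of each mouse was extracted with an RNeasy kit and made into biotin-labelled cRNA for Affymetrix arrays. The deposited values were linear intensities of 45101 probe sets, above 0 and without detection calls, and the authors' summary algorithm and scaling are not given in the sources used here. The highest 75th percentile of an array was 1.76 times the lowest, so intensities were quantile normalized and converted to log2(value + 16). Names came from the platform's annotation of the probe sets (34958 with 1 symbol, 932 with several, 9211 with none listed), each gene was represented by its brightest probe set, and genes under the 40th percentile of probe set means were left out. Groups were taken from the sample labels and compared by a two-sided test with limma (version 3.58.1, under R 4.3.3) in 1 model of 4 group means over 24 arrays, with Benjamini-Hochberg adjustment and a threshold of 0.05. Intervals are 95%. On simulated data for STZ against control with 200 changed genes, 72% of changes of 0.5 and 98% of changes of 1 on the log2 scale were recovered among 13114 genes. These rates were not taken for the transporters, whose SE in this comparison reached 0.33 (Slco1a4). The labels do not tie a replicate number to a cage or day, and deviations of mice with the same number correlated between -0.14 and 0.32. The members, gene lists, motifs and alternatives were chosen with earlier results of these data known. All 10 transporters were named. Other list genes were named where called, with the reporters named in full between STZ and control. Likeness was given for the 3 genes with the highest r. Promoter sequences are RefSeq's for GRCm38.p6. Alternatives covered normalization, the constant, the filter, probe sets, a replicate block, the Gapdh term, the groups in the fit, the variance model and left-out mice. The number of arrays limits the precision, and p-values take the mice as independent samples.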

Additional observations from a re-analysis of the deposited data

Results flagged for a closer look

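For each transporter and group of 6 livers (40 groups in all), the lowest and the highest value were checked for a gap to the nearest of the others that exceeded, as a share of the group's range, Dixon's 95% critical value for 6 values, a limit that chance passes in about 1 group in 20. This marked 3 values. Abcc4 in STZ replicate 6 measured 5.27, against 4.54 to 4.68 in the other STZ livers. Slco1b2 in STZ replicate 1 measured 10.97, against 11.10 to 11.17 in the others. Abcb4 in 0.1% quercetin replicate 5 measured 10.37, against 9.72 to 9.91 in the others of that group. Abcc4 and Abcb4 kept their differences from control in every omission of 1 mouse, with ranges of 0.41 to 0.57 for Abcc4 (STZ) and 0.79 to 0.92 for Abcb4 (0.1% quercetin).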

How the results depend on the processing

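Of 1494 values of single transporters under the alternatives, 1414 kept their side of the threshold, 70 lost a call and 10 gained one. Most of the 1494 belong to results that were not called in the main fit. A call could be lost only by the 5 transporters called for STZ and the 7 called for 0.1% quercetin against control. The 1414 is therefore no rate at which calls were kept. Of the 1494 values, the sign turned in 20, among them Slco1b2 with the mean of its probe sets, and in 0 of the values called before or after. Between STZ and control, the 5 transporters that passed became 0 with the Gapdh term and 3 with a constant of 1 (Slco1a1 and Abcg2 lost), 0 to 7 over 13 alternatives, and 3 to 5 with 1 mouse left out. The Slco1a1 call there was lost in 5 of the 13, among them the mean of probe sets, the replicate block and another variance model. The Abcg2 call was lost in 3, among them the values as deposited (-0.38, limma adjusted p = 0.268). Between 0.1% quercetin and control, the 7 became 0 with the Gapdh term and 4 on the values as deposited (Abcc2, Abcc3 and Abcg2 lost), and 4 to 7 with 1 mouse left out. Over 13 settings the Abcc3 call was lost in 11 and the Abcc2 call in 8, both under median scaling, a constant of 1, no filter, the replicate block and the mean of probe sets. Between 0.5% quercetin and control, the 0 became 3 with median scaling (Slco1b2, Slco2b1 and Abcg2 lower), 2 without replicates 5 and 6, and 0 to 1 with 1 mouse left out. The median difference of all genes there was -0.09 with median scaling and -0.01 with quantile normalization. The other 3 comparisons had 0 transporters under every alternative and every omission. With the replicate block, 4, 5 and 0 transporters passed for STZ, 0.1% and 0.5% quercetin against control, and the best match of a mouse was its own number in 0 to 2 of 6 pairs, so the numbers were not taken to pair the mice. Over all genes, the 488 between STZ and control became 6 with the Gapdh term, 161 as deposited and 246 to 443 with 1 mouse left out. The 731 between 0.1% and control became 4, 217 and 440 to 816 under the same settings. The 17 between 0.5% and control became 0 to 686 over the alternatives and 1 to 150 with 1 mouse left out. At 0.1%, 29.2% of calls were higher with median scaling, 58.5% as deposited and 52.7% with quantile normalization. The cause of these shifts was not tested. Dim probe sets (Abcc4, Abcb1a) limit what can be read near the floor.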
